A study of Mus musculus with 11 samples.

Results

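The 84 nuclear genes analysed here encode subunits of the respiratory chain and of ATP synthase in mouse fetal lung mesenchymal cells. They were chosen by gene symbol alone, as every symbol of the count tables that begins with the names of these subunit families, and they are 84 of 24062 genes listed. By symbol, 37 belong to complex I (NADH dehydrogenase, Nduf), 4 to complex II (succinate dehydrogenase, Sdh), 8 to complex III (cytochrome bc1, Uqcr), 18 to complex IV (cytochrome c oxidase, Cox) and 17 to complex V (ATP synthase, Atp5). RNA was sequenced from cultured cells of embryonic day 15 (E15) lungs, obtained from timed matings, digested with collagenase, selected by rapid adhesion to plastic and passaged. There were 4 WT libraries, 4 Sp3+/- libraries that carried 1 mutant allele of the transcription factor Sp3, and 3 Sp3-/- libraries in which both alleles were mutant, and no other allele or treatment was given in the sample labels. The mutant allele was carried in the germ line, so it was not limited to the mesenchyme. The labels did not state whether each library came from a separate embryo, so p-values measure the spread between these libraries.

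The respiratory chain passes electrons from NADH and succinate to oxygen and pumps protons across the inner mitochondrial membrane, and ATP synthase uses the returning protons to make ATP. Most of its subunits are encoded in the nucleus and a small set in mitochondrial DNA, so both genomes must supply matching amounts. The nuclear subunit genes are expressed in nearly every cell, and their promoters are textbook targets of NRF1, of the ETS factor GABP (NRF2) and of Sp1, which binds the GC box that Sp3 also recognises. They therefore address whether loss of Sp3 is felt across housekeeping genes as a class.

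The libraries held 9849111 to 45630738 reads on genes in Sp3-/-, 14113788 to 35351093 in WT and 13842791 to 59297495 in Sp3+/-. Sp3 itself was read at 5.94 to 6.75 log2 CPM (log2 of counts scaled to the total reads on genes, adjusted by TMM factors) in WT, 5.71 to 6.15 in Sp3+/- and 3.89 to 4.23 in Sp3-/-, a log2 fold change of -2.30 ± 0.21 (SE) for Sp3-/- against WT (edgeR adjusted p = 0.0061). Sp1 was 6.96 to 7.26 in WT and 7.21 to 7.38 in Sp3-/- and was not called (log2 fold change 0.26, 95% interval 0.01 to 0.50). All 12 lung mesenchyme markers were read, summing to 12881 to 21634 CPM in WT and 7194 to 18857 in Sp3-/-, and of 11 tested 1 was called higher (Wnt2) and 3 lower (Tbx5, Foxf1 and Vim). Markers of other cells and of dividing cells were also called in Sp3-/- against WT, beside 18.5% of all genes tested. Among pericyte and smooth muscle markers 8 of 12 (66.7%) were called lower. Called higher were 7 of 14 macrophage (50.0%), 3 of 8 epithelial (37.5%) and 3 of 6 mesothelial markers (50.0%). Of the S phase, G2 and mitosis genes 4 of 24 (16.7%) were called lower, and 1 of 9 endothelial markers was called in each direction (22.2% together). The shares of these last 2 lists were near that of all genes. The summed level of 13 pericyte and smooth muscle markers (Higd1b at 3 reads or fewer everywhere) was 4218 to 5082 CPM in Sp3-/- and 11566 to 23624 in WT, and that of 14 macrophage markers was 3283 to 11913 against 667 to 3447. The 10 epithelial markers (Sftpb at 3 reads or fewer everywhere) summed to 63.3 to 182 CPM in Sp3-/- against 30.9 to 62.3 in WT. The part of these shifts in the subunit values was not tested, and in bulk RNA fewer cells of a type cannot be told apart from less RNA per cell. The titles of the libraries end in a suffix (none, 2 or 3) whose meaning was not given, and all 3 Sp3-/- libraries have none, as does 1 WT library (468-4) and 1 Sp3+/- library (697-4). The deposited table of 697-4 carries the suffix 2 in its name, and the title was followed here in every use of the suffix. Macrophage markers differed by suffix too: they summed to 3236 CPM or more in those 5 libraries and to 958 or less in the other 6. With the suffix as a covariate, where 9.41% of all genes were called, 0 of 14 macrophage markers were called by edgeR (11 had an unadjusted p below 0.05). In that fit 2 of 24 S phase, G2 and mitosis genes were called lower, with a median of -0.03 in place of -0.97. Of the pericyte and smooth muscle markers 7 of 12 were called lower. For suffix 3 against none, where 6.36% of all genes were called, 11 macrophage markers were called lower and 6 of the S phase, G2 and mitosis genes higher.

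Expression of the subunit genes differed little between Sp3-/- and WT. All 84 together took 0.655% to 0.775% of gene reads in WT, 0.686% to 0.741% in Sp3+/- and 0.658% to 0.705% in Sp3-/-, so the groups overlapped. Of the 84, 75 passed the filter on low counts (CPM above 1 in at least 1 library) and were tested. 2 of the 75 (2.67%) were called in Sp3-/- against WT, both lower: Ndufv3 of complex I and Atp5o of complex V. Over all 14025 genes tested, 18.5% were called in either direction and 9.77% were called lower. The median log2 fold change of the 75 was -0.08 with quartiles of -0.18 and 0.03, beside -0.00 with quartiles of -0.34 and 0.30 over all genes. None of the 75 differed by more than 2-fold, whereas 2520 of the 14025 genes did. By value alone, 23 were above 0 and 52 below.

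The precision of the subunit values bounds what could have been missed. The median SE of a subunit gene was 0.118 on the log2 scale, compared with 0.180 over all genes. For 56 of the 75 (74.7%) the 95% interval of the fold change lay within 1.5-fold in both directions, against 36.6% of all genes tested, and for 72 it lay within 2-fold. The other 19 intervals, those of Ndufv3 and Atp5o included, reached past 1.5-fold on at least one side, and a difference of that size was not excluded for those genes. Another 6 subunit genes had an unadjusted p below 0.05 without being called.

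**Figure D1:**
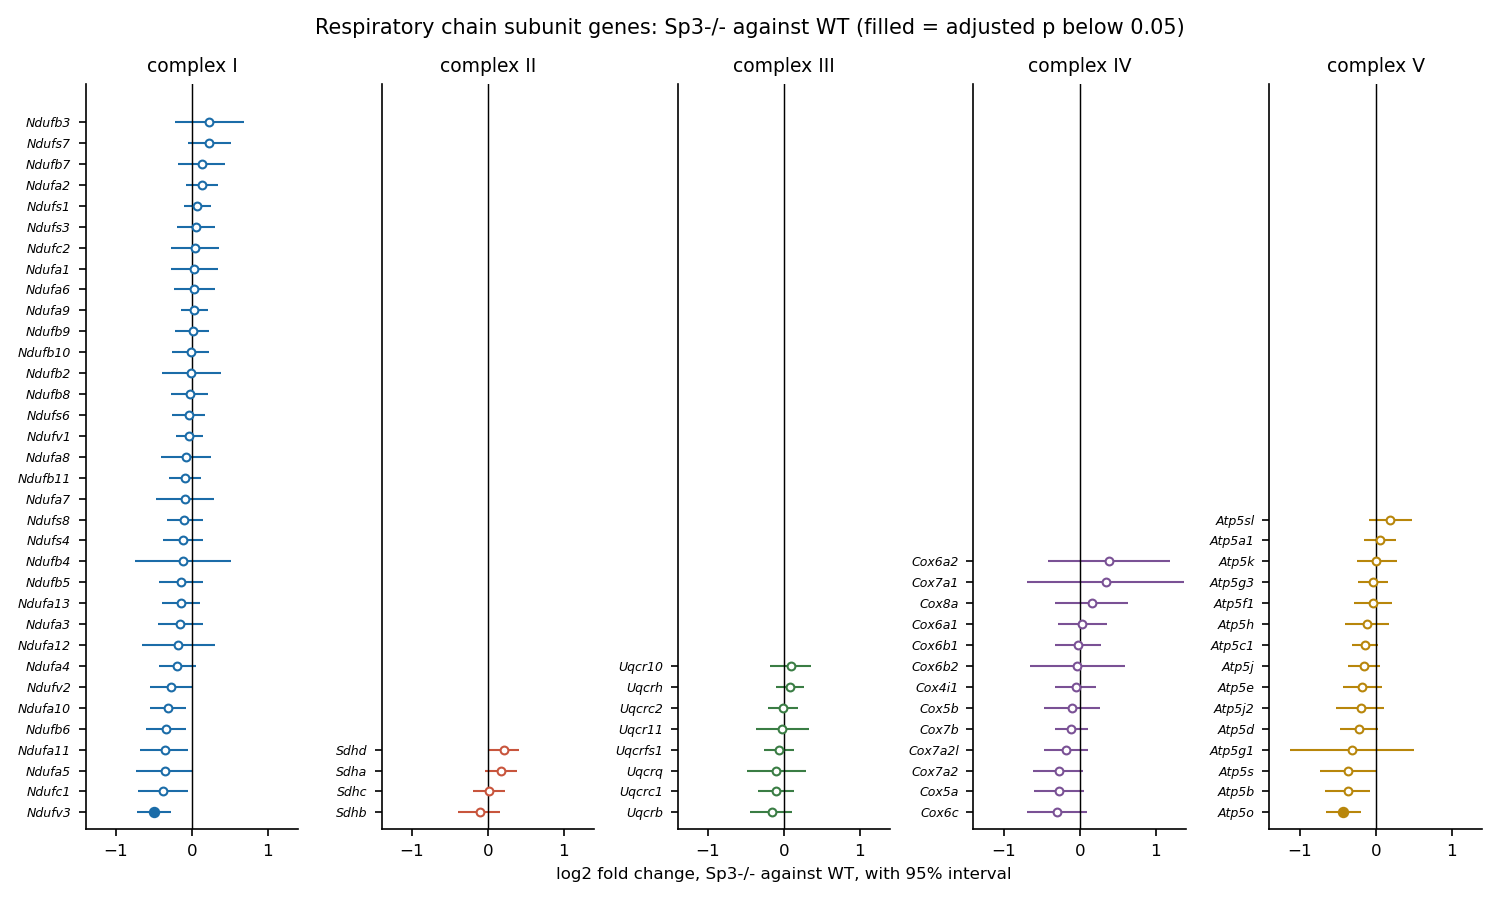
Log2 fold change (x axis, point) with its 95% interval (line) for the tested subunit genes (1 gene of complex I is not shown), Sp3-/- (3 libraries) against WT (4 libraries), 1 panel per complex and 1 row per gene. Filled points are called at an adjusted p below 0.05: Ndufv3 at -0.50 and Atp5o at -0.43, with the open points between -0.38 and 0.38.

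The 7 core subunits of complex I, which hold the flavin, the iron-sulphur clusters and part of the quinone site, had log2 fold changes of -0.27 (Ndufv2) to 0.23 (Ndufs7), and all 7 intervals lay within 1.5-fold. Ndufs1, the large subunit with several iron-sulphur clusters, was 6.67 to 6.79 log2 CPM in WT and 6.76 to 6.90 in Sp3-/-. Ndufv1, which binds NADH and the flavin, was 6.2 to 6.31 in WT and 6.18 to 6.29 in Sp3-/-. Both groups overlapped in both genes.

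Among the 28 other genes of complex I by symbol that were tested, mostly accessory subunits that stabilise and surround that core, 1 was called. Ndufv3, a small accessory subunit of the NADH-oxidising module, was 5.97, 6.27, 6.16 and 6.14 log2 CPM in the 4 WT libraries, 6.37, 6.06, 5.92 and 5.84 in Sp3+/-, and 5.71, 5.52 and 5.66 in Sp3-/-. All 3 Sp3-/- libraries lay below every WT and every Sp3+/- library. The log2 fold change was -0.50 ± 0.0973 (SE, edgeR adjusted p = 0.0188), a level 0.706 times that of WT. Ndufb6, an accessory subunit of the membrane arm, was 5.69, 5.42, 5.45 and 5.70 in WT and 5.27, 5.09 and 5.33 in Sp3-/-. These groups did not overlap, but the difference of -0.34 ± 0.11 was not called (edgeR adjusted p = 0.0694). Ndufa10, a membrane arm subunit on the matrix side, was 6.45, 6.5, 6.23 and 6.59 in WT and 6.09, 6.12 and 6.18 in Sp3-/-. It too lay lower in every Sp3-/- library, at -0.31 ± 0.10 (edgeR adjusted p = 0.0667).

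Complex II, the only complex with no subunit encoded in mitochondrial DNA, was the only one whose median fold change was above 0. Its 4 genes had a median of 0.10, none was called, and all 4 intervals lay within 1.5-fold. Sdha, the flavoprotein that oxidises succinate, was 8.01, 7.90, 7.86 and 8.0 in WT and 8.03, 8.11 and 8.18 in Sp3-/-, a difference of 0.17 with an interval of -0.04 to 0.38. Sdhd, a membrane anchor, was 6.85, 6.59, 6.69 and 6.70 in WT and 6.87, 6.96 and 6.90 in Sp3-/-, a difference of 0.21 with an interval of -0.00 to 0.41. In both genes every Sp3-/- library was above every WT library by a margin smaller than the range within WT. Sdhb, which holds the iron-sulphur clusters, had a value of -0.11 (interval -0.39 to 0.16).

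In complex III none of 8 genes was called and the values ran from -0.16 (Uqcrb) to 0.09 (Uqcr10). All 8 intervals lay within 1.5-fold. Uqcrfs1, the Rieske iron-sulphur protein, was 6.16 to 6.40 log2 CPM in WT and 6.23 to 6.26 in Sp3-/-, and the core proteins Uqcrc1 and Uqcrc2 had values of -0.10 and -0.01. Complex IV also had no call among 13 genes tested, with values from -0.30 (Cox6c) to 0.38 (Cox6a2), but its genes were less precise: 6 of 13 intervals lay within 1.5-fold. Its nuclear genes Cox4i1, Cox5a and Cox5b had values of -0.05, -0.28 and -0.10. Cox8a, the smallest subunit, spread widely within WT, from 6.45 to 6.57 in the 3 libraries with suffix 3 to 7.28 in the library without one, and was 6.82 to 7.00 in Sp3-/-.

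Complex V had the lowest median of the complexes, -0.16, with 12 of 15 values below 0 and 1 call. Its 17 genes took 0.255% to 0.298% of gene reads in WT, 0.267% to 0.292% in Sp3+/- and 0.244% to 0.250% in Sp3-/-. All 3 Sp3-/- libraries were thus lower than all others for this share, without a test. Such a share is weighted to highly read genes, and Atp5b, described below, was the highest. The mean log2 CPM over the 15 genes tested weighs each gene alike, and there the groups overlapped. It was 5.933 to 6.189 in WT, 5.979 to 6.112 in Sp3+/- and 5.905 to 6.011 in Sp3-/-. Atp5o, which encodes the oligomycin sensitivity-conferring protein at the top of the peripheral stalk, was 6.48, 6.64, 6.47 and 6.77 log2 CPM in WT, 6.72, 6.51, 6.5 and 6.47 in Sp3+/-, and 6.14, 6.2 and 6.15 in Sp3-/-. Every Sp3-/- library was lower than every library of the other genotypes. The log2 fold change against WT was -0.43 ± 0.0998 (SE, edgeR adjusted p = 0.0292), a level 0.744 times that of WT. Atp5b, the catalytic beta subunit and the most highly read gene of the 84, was 10.20, 10.21, 10.04 and 10.45 in WT and 9.84, 9.84 and 9.88 in Sp3-/-, also without overlap, but was not called at -0.37 ± 0.13 (edgeR adjusted p = 0.0775). Its partner in the F1 head, the alpha subunit Atp5a1, was 9.20 to 9.31 in WT and 9.25 to 9.33 in Sp3-/- (0.05, interval -0.16 to 0.27). The other peripheral stalk genes, Atp5f1, Atp5h and Atp5j, had values of -0.04, -0.11 and -0.16. Atp5s and Atp5sl, which match the symbol rule although their products are not counted among the structural subunits, had values of -0.37 and 0.19.

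**Figure D2:**
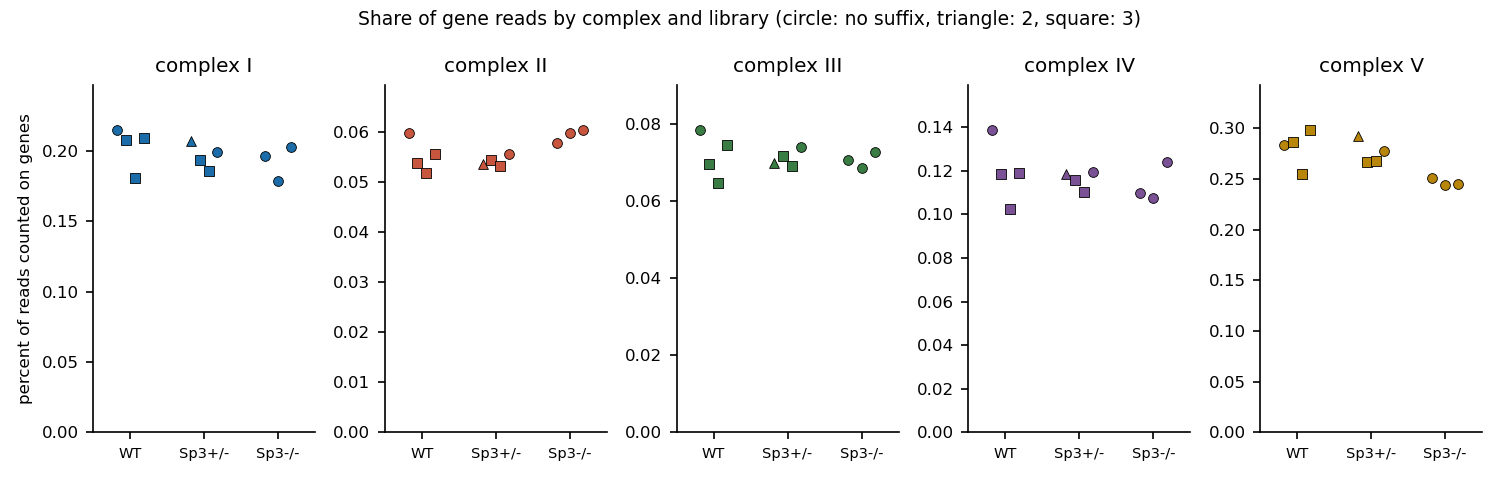
Percent of all gene reads (y axis, from 0) taken by the genes of each complex in each library, by genotype, with 1 point per library and its shape giving the title suffix. The complex V points of Sp3-/- (0.244% to 0.250%) lie under all WT points, while Sp3-/- and WT overlap in complexes I, II, III and IV. In complex II the Sp3-/- points (0.0578% to 0.0604%) lie above all Sp3+/- points (0.0532% to 0.0555%). Highly read genes such as Atp5b weigh most in these shares.

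**Figure D3:**
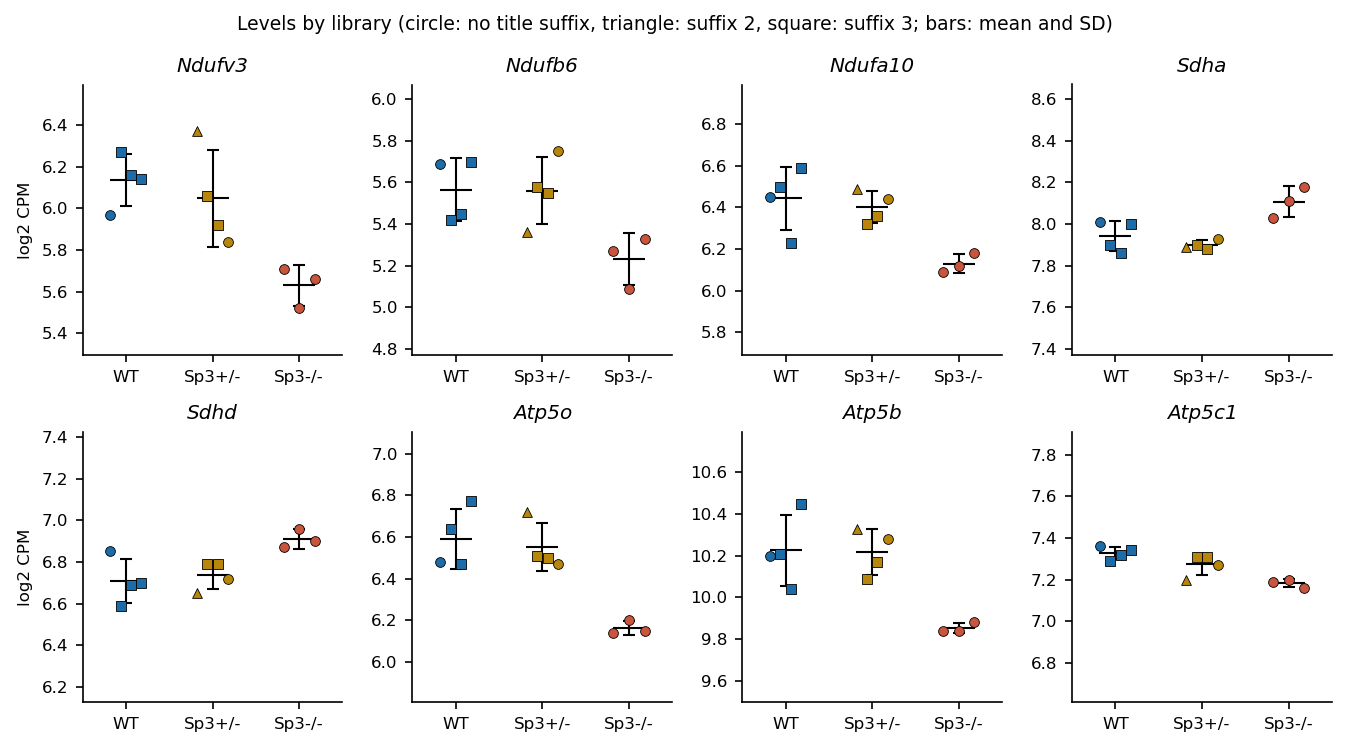
Level (y axis, log2 CPM) of 8 subunit genes in every library, with the mean and SD of each genotype as bars, over an equal span of 1.3 log2 units in each panel. Sp3-/- libraries lie under all WT libraries for Ndufv3, Ndufb6, Ndufa10, Atp5o, Atp5b and Atp5c1, and above them for Sdha and Sdhd.

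In all, 7 of the 75 genes (9.33%) had every Sp3-/- library below every WT library (Ndufv3, Ndufb6, Ndufa10, Atp5o, Atp5b, Atp5c1 and Atp5s), and 2 (2.67%, Sdha and Sdhd) had every library above. Over all genes tested, 16.7% were wholly below and 14.9% wholly above. Atp5c1, the gamma subunit of the rotating shaft, shows how small such a separation can be: it was 7.29 to 7.36 log2 CPM in WT and 7.16 to 7.20 in Sp3-/-, a difference of -0.14 ± 0.0737.

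Both calls depended on which library was left out. Leaving out each library in turn gave -0.56 to -0.45 for Ndufv3 and -0.47 to -0.36 for Atp5o, and adjusted p of 0.0065 to 0.082 and of 0.017 to 0.089. No subunit gene was called without Sp3-/- 697-2, WT 685-2, WT 697-1 or WT 697-3, when the share of all genes called was 2.01%, 6.39%, 5.48% and 5.74%. Without WT 468-4 both genes stayed called, together with 29.9% of all genes. Without Sp3-/- 685-1 or Sp3-/- 697-5 only Ndufv3 was called, so Atp5o was called in just that 1 of the 7 smaller sets of libraries. Over 11 other settings Ndufv3 was called in 10 and Atp5o in 9. With the title suffix as a covariate in a fit of all 11 libraries, where 9.41% of 14130 genes were called, 2 subunit genes were called lower: Ndufb6 at -0.47 (edgeR adjusted p = 0.0432) and Ndufv3 at -0.36 (edgeR adjusted p = 0.0477). Atp5o was then at -0.36 (edgeR adjusted p = 0.06). The median of the 75 was -0.17 in that fit, beside 0.01 over all genes. Of the 75, 60 had values below 0 and 15 had an unadjusted p below 0.05 in edgeR. The suffix itself, 3 against none with genotype held, was followed by 6.36% of genes and by none of the 75 at an adjusted p below 0.05, although 11 had an unadjusted p below 0.05, 61 of the 75 had values below 0 and their median was -0.11. Genotype and suffix cannot be fully told apart in this design. Among the libraries without a suffix, with a single WT library, no gene of any kind was called by edgeR (1337 of 13752 had an unadjusted p below 0.05) and the median of the 75 was -0.22.

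Loss of a single Sp3 allele was compared next. Sp3 itself was at -0.49 in Sp3+/- against WT (interval -0.85 to -0.13) and was not called by edgeR. The absence of a call in this comparison therefore does not show an unchanged level. None of the 75 was called in Sp3+/- against WT by edgeR, DESeq2 or limma-voom, none had an unadjusted p below 0.05, and of all 14130 genes 0.0% were called and the number with an unadjusted p below 0.05 was 246 in edgeR, 281 in DESeq2 and 303 in limma-voom. The median was -0.04 and the values ran from -0.20 (Cox7a2) to 0.42 (Cox6b2). For 70 of 75 genes the interval lay within 1.5-fold. Ndufv3 and Atp5o had values of -0.08 and -0.04 in this comparison. In Sp3-/- against Sp3+/-, which shares the Sp3-/- libraries with the first comparison, 4 of 75 were called lower and none higher, while 25.5% of all genes were called and 12.5% were called lower. They were Ndufv3 (-0.43, adjusted p = 0.0324), Atp5o (-0.39, adjusted p = 0.0166), Atp5b (-0.37, adjusted p = 0.0356) and Ndufa10 (-0.27, adjusted p = 0.0447), all by edgeR. The Sp3+/- libraries held 10.09 to 10.33 log2 CPM of Atp5b and 6.32 to 6.49 of Ndufa10, clear of the Sp3-/- libraries in both.

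The promoters of the called and nearly called genes are shown because the GC box is the sequence through which Sp3 is known to bind. They are RefSeq sequences of GRCm38.p6, the assembly of the deposited counts, and run 300 bases in the direction of transcription, from 250 before the annotated start site to 50 after it. Capitals mark the GC box GGGCGG on either strand (CCGCCC on the other). They lie at chr17:31519865-31520164 (plus strand, Ndufv3), chr16:91931581-91931880 (minus, Atp5o), chr4:40279372-40279671 (minus, Ndufb6), chr1:92473709-92474008 (minus, Ndufa10) and chr10:128083057-128083356 (plus, Atp5b). Sdhb, at chr4:140961021-140961320 (plus), is given beside them as the tested subunit gene with the most GC boxes at the outer start site of its gene. Ndufa13 also held 3, in a window whose start site lies inside its gene.
Ndufv3: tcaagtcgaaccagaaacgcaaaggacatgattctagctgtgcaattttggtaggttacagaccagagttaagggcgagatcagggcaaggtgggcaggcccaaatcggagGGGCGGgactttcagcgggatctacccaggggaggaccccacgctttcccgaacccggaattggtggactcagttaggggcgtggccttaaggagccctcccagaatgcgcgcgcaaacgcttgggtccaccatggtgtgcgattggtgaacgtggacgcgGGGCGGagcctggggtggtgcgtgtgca
Atp5o: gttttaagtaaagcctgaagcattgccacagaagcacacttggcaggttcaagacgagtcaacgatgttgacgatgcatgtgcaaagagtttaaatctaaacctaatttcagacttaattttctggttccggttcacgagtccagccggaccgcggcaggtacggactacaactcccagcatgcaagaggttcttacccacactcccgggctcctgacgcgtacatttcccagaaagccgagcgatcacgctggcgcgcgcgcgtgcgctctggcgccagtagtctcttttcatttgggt
Ndufb6: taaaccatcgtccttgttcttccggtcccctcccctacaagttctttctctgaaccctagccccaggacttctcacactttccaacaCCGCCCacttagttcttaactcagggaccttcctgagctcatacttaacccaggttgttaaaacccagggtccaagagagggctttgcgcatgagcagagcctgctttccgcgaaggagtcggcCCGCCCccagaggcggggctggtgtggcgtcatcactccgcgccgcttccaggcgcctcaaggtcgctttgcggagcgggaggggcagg
Ndufa10: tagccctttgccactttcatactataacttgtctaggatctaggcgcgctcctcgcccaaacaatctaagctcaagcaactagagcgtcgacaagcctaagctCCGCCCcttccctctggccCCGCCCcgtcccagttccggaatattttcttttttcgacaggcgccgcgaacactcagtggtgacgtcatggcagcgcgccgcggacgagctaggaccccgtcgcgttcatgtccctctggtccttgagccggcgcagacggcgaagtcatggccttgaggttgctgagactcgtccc
Atp5b: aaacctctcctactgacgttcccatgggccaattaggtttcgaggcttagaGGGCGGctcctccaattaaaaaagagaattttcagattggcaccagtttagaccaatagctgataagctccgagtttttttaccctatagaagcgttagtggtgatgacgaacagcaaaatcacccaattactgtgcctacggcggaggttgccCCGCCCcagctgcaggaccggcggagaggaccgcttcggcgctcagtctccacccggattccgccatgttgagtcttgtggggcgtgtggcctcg
Sdhb: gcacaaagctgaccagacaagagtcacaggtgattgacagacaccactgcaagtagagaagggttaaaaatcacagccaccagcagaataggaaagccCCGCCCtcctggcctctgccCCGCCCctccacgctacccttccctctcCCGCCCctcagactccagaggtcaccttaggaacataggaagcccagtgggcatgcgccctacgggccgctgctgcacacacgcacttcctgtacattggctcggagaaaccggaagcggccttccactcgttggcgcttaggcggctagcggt

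Ndufv3 held 2 GC boxes, of which 1 lay past the start site, and Ndufb6, Ndufa10 and Atp5b also held 2 each. The window of Atp5o, the other called gene, held none. Sdhb held 3, and its log2 fold change was -0.11 without a call. A match to these letters is a description of the window and not a binding site.

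Promoter entries were found for 69 of the 84 genes, 75 entries in all. A GC box was in 38.7% of them, in 35.7% of all 32851 promoters and in 61.1% of the 13441 promoters of genes tested. The median GC content was 57.3% for the subunit genes, 52.7% for all promoters and 60.7% for genes tested. The share of subunit promoters with a GC box was thus below that of the genes read in these cells, although these genes are usually described as having GC-rich promoters. With the longer motif GGGGCGGGG, which contains the shorter one, the shares were 16%, 11.4% and 20.6%. Motifs of the other textbook regulators were more frequent than among genes tested: NRF1 (GCGCANGCG) in 28.0% against 12.1%, the ETS motif CCGGAAG in 21.3% against 15.9%, and the YY1 motif AAGATGG in 17.3% against 6.65%, while CCAAT was in 42.7% against 37.1%. All were counted on both strands. Over all promoters the shares of NRF1, ETS, YY1 and CCAAT were 6.25%, 8.86%, 6.34% and 37.4%. Entries were lacking for 15 genes, among them Atp5a1, Cox4i1, Cox4i2, Cox6a2, Cox6c, Cox8c, Ndufa2, Ndufa4l2, Ndufb9, Ndufs1, Sdhc, Uqcrb, Uqcrc2 and Uqcrq.

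Fold changes of genes with and without a GC box were set side by side. Of the 26 tested subunit genes with one, 1 was called and the median was -0.16. Of the 37 without one, 1 was called and the median was -0.04. Over all genes tested that had a promoter entry, 18.7% of 7141 with a GC box and 16.7% of 3368 without one were called, with medians of -0.02 and 0.04.

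Several subunits of complex IV exist in isoforms of which 1 is made in most tissues and the other in heart and muscle, lung, brain or testis. Per kilobase of the canonical transcript, the widespread form was far more abundant in these cells. In WT, mean levels were 412 CPM per kb for Cox4i1 and 0.65 for Cox4i2 (the lung isoform), 267 for Cox6a1 and 1.70 for Cox6a2 (heart and muscle), 116 for Cox7a2 and 1.72 for Cox7a1 (heart and muscle), and 76.7 for Cox7b and 0.033 for Cox7b2. Cox8a stood at 192 CPM per kb, Cox8b at 0.00998, and Cox8c had 0 reads in every library, which in the shallowest library allows up to 0.305 CPM. Cox6b2, the testis form, was the exception at 23.9 CPM per kb beside 268 for Cox6b1. It was 3.32 to 4.42 log2 CPM in WT, 4.07 to 4.58 in Sp3+/- and 3.54 to 4.07 in Sp3-/-, and was not called in any comparison between genotypes. Ndufa4, now placed in complex IV by function, was at 234 CPM per kb and its oxygen-responsive relative Ndufa4l2 at 0.493. None of the widespread forms was called in Sp3-/- against WT, and Cox6a2, Cox6b2 and Cox7a1, the tissue forms that could be tested, had values of 0.38, -0.03 and 0.34 with intervals of -0.42 to 1.19, -0.65 to 0.59 and -0.70 to 1.37.

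The order of levels within a complex was also taken per kilobase of transcript. With complexes taken by symbol, the highest in complex I was Ndufa4 (234 CPM per kb in WT), followed by Ndufa2 (113). The highest in the others were Sdhd in complex II (83.2), Uqcr10 in complex III (167), Cox4i1 in complex IV (412) and Atp5b in complex V (624). In complex II Sdhd and Sdha (80.0) were near each other. The lowest in complexes II and III were Sdhb (22.6) and Uqcr11 (13.9). Transcript models from GENCODE vM39 set the lengths, so the order depends on the model chosen.

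Not all of the low values were those of tissue isoforms. Ndufs5, an obligatory subunit of complex I, had 1 read over all 11 libraries, and Atp5l (subunit g of ATP synthase) and Cox7c (an obligatory subunit of complex IV) had 120 and 240. Reads that match more than 1 place in the genome are commonly left out of such counts, and the part of this in the low levels was not tested. When the canonical transcript was cut into all 50-base windows, the read length used, 75.4% of the windows of Ndufs5, 68.7% of Atp5l and 71.5% of Cox7c were found elsewhere in GRCm39. Much the same was found for the c ring of ATP synthase, which is made from 3 genes for 1 mature protein: Atp5g1 and Atp5g2 had 84.4% and 88.4% of windows elsewhere and levels of 2.28 and 0.386 CPM per kb, whereas Atp5g3 had 0.0% and 165. In all, 13 of 84 genes had at least 20% of windows elsewhere, including 4 of the 9 that were not tested. The other 5 untested genes were the tissue isoforms Cox4i2, Cox7b2, Cox8b, Cox8c and Ndufa4l2. Levels of the 13 genes are therefore uncertain. Leaving them out, 2 of 66 genes were called in Sp3-/- against WT and the median was -0.04. Ndufv3 had 0.0% of windows elsewhere, Atp5o 6.29% and Ndufb6 5.12%. Ndufv3, Atp5o and Ndufb6 also overlap no other RefSeq gene, while Atp5b overlaps the small RNAs Mir677 and Snord59a, and Ndufa10 overlaps Mir6900.

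**Figure D4:**
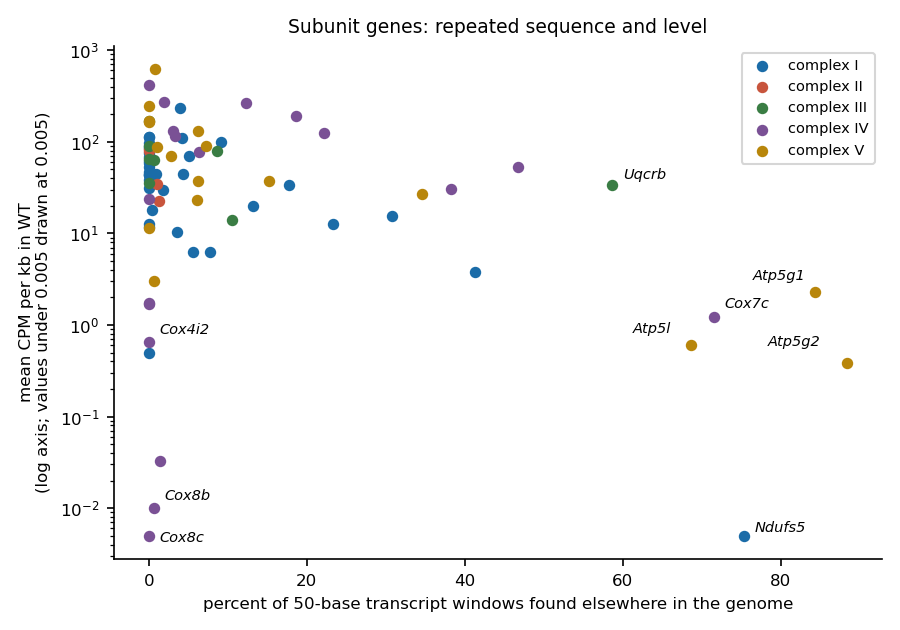
Mean level in WT (y axis, CPM per kb, log scale) of each of the 84 genes against the percent of 50-base windows of its transcript found elsewhere in the genome (x axis), coloured by complex. Ndufs5, Cox7c, Atp5l, Atp5g1 and Atp5g2, with 68.7% to 88.4% of windows elsewhere, stand under 3 CPM per kb, and the tissue isoforms stand low at the left. Ndufs5 and Cox8c, at 0 CPM per kb, are drawn at the lower edge.

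The subunits that mitochondrial DNA encodes were not analysed here. Among 9 subunits and electron carriers whose symbols lie outside the rule, such as Cyc1 (cytochrome c1, -0.05), Cycs (cytochrome c, 0.38) and Ndufab1 (the acyl carrier subunit, -0.26), none was called. Cycs and Ndufab1 were low and uncertain, with SE of 0.51 and 0.23.

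Genes that build, drive or surround the respiratory chain were set beside the subunits in Sp3-/- against WT. Of 39 assembly factors tested, none was called higher and 2 lower (5.13%, below the 9.77% of all genes called lower). Ndufaf2, which assists the late steps of complex I assembly, was 2.94 to 3.12 log2 CPM against 3.65 to 3.88 in WT (log2 fold change -0.74 ± 0.12, edgeR adjusted p = 0.0137). Bcs1l, which inserts the Rieske protein into complex III, was 3.23 to 3.48 against 3.58 to 3.88 (-0.48 ± 0.14, edgeR adjusted p = 0.0488). Ndufaf7 was at -0.43 (edgeR adjusted p = 0.0602). Of 17 regulators of mitochondrial biogenesis, 1 rose and 2 fell (17.6%, near the 18.5% of all genes). Ppargc1a, the coactivator PGC-1alpha, fell from 1.41 to 2.85 log2 CPM in WT to -0.02 to 0.40 in Sp3-/- (-2.19 ± 0.46, edgeR adjusted p = 0.0235). The subunits of the ETS factor GABP moved unequally. Gabpb1 was 4.48 to 4.67 in WT and 4.13 to 4.21 in Sp3-/- (-0.43 ± 0.094, edgeR adjusted p = 0.0253), Gabpb2 was 5.53 to 5.99 and 6.16 to 6.56 (0.59 ± 0.15, edgeR adjusted p = 0.0363), and the DNA-binding Gabpa was not called (0.27, edgeR adjusted p = 0.0577). Nrf1 and Tfam, the mitochondrial transcription factor, had values of 0.11 and 0.04. Over the 11 other settings Ndufaf2, Gabpb1 and Gabpb2 were called in 10, Ppargc1a in 8 and Bcs1l in 5. Leaving out single libraries removed the call in 1 set for Ndufaf2, 4 for Ppargc1a and Gabpb1, 5 for Gabpb2 and 6 for Bcs1l. With the suffix as a covariate Ppargc1a and Bcs1l were not called (edgeR adjusted p = 0.0583 and 0.1259).

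Of 17 tricarboxylic acid cycle genes, 2 were called lower and none higher (11.8%, near the 9.77% of all genes called lower). They were Suclg2 (-0.58 ± 0.14, edgeR adjusted p = 0.0347) and Fh1 (fumarase, -0.39 ± 0.11, edgeR adjusted p = 0.0477). Idh2 had the largest value at -0.79 without a call (edgeR adjusted p = 0.078). Over the 11 other settings Suclg2 was called in 9 and Fh1 in 5. Leaving out single libraries removed the call in 5 sets for Suclg2 and 6 for Fh1. With the suffix as a covariate neither was called (edgeR adjusted p = 0.1376 and 0.0748). Of 76 mitochondrial ribosomal proteins, 1 was called higher (Mrpl24) and 3 lower (Mrps6, Mrpl13 and Mrps28), with a median of -0.06. Together these were 5.26%, below the 18.5% of all genes called in either direction. Their largest value, -0.77 for Mrps36, was not called. Cytosolic ribosomal proteins, another large housekeeping class, had more calls. Here 37 of 72 were called lower (51.4%, beside 9.77% of all genes), none higher, and the median was -0.47. Rplp0, a stalk protein of the large subunit, was 9.30 to 9.43 log2 CPM in WT and 8.70 to 8.86 in Sp3-/- (-0.59 ± 0.0990, edgeR adjusted p = 0.0136). The difference between these classes was not tested, and many ribosomal protein genes have near-identical copies. The count called lower was 1 to 40 when single libraries were left out, with the count of 1 found without Sp3-/- 697-2. With the suffix as a covariate that count was 24 of 73, where 9.41% of all genes were called. Among the libraries without a suffix, with a single WT library, the median was -0.43. Among 20 oxygen-responsive genes, which include glycolytic genes that trade off with respiration, 2 were called higher and 6 lower, led by the peptide hormone Adm (-1.91, edgeR adjusted p = 0.0279) and the glycolytic kinase Pgk1 (-1.11, edgeR adjusted p = 0.0197).

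**Figure D5:**
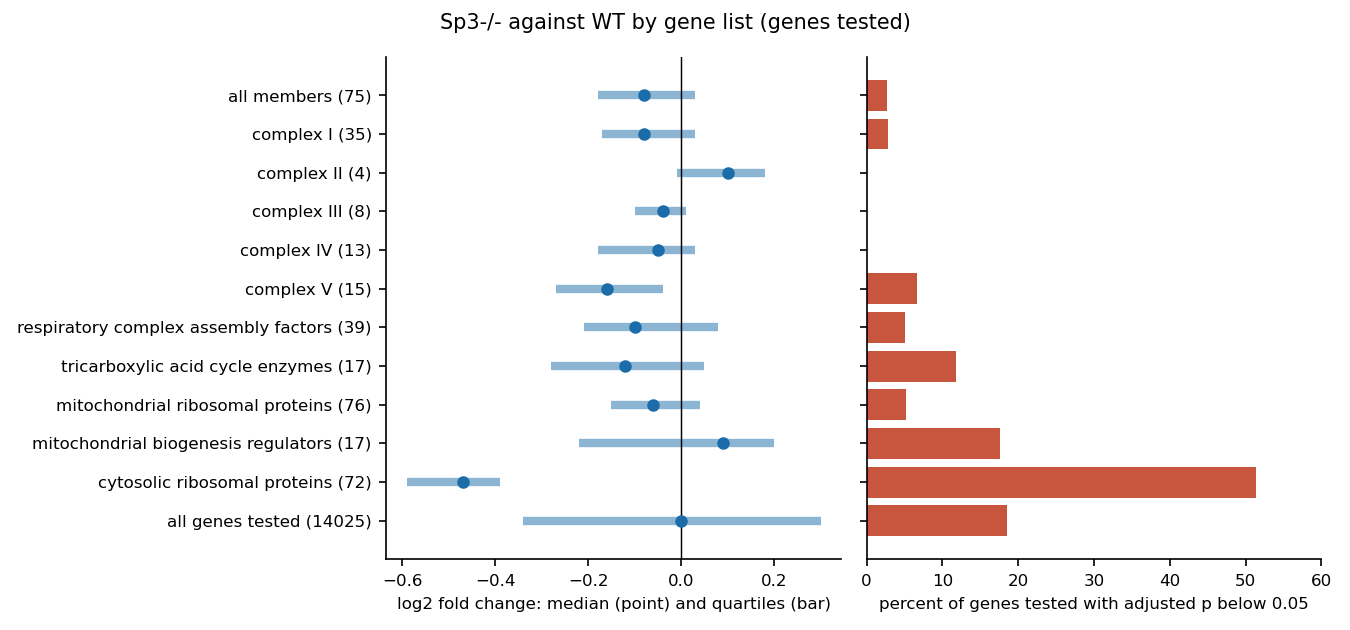
Left, median (point) and quartiles (bar) of the log2 fold change, Sp3-/- against WT, for the subunit genes, each complex and related gene lists, with the number of genes tested in parentheses; right, the percent of those genes called at an adjusted p below 0.05 (bars from 0). The subunit genes had 2.67% called, the cytosolic ribosomal proteins 51.4% and all genes 18.5%.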

How the data were processed

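RNA from 11 libraries (4 WT, 4 Sp3+/- and 3 Sp3-/-) was sequenced by the authors from TruSeq libraries (single-end, 50 bp). The reads were checked with FastQC 0.10.1, aligned to mm10 with STAR 2.4.5a and counted per gene with htseq-count. The annotation version and the strand setting were not given in the sources used here. The deposited values are whole-number counts per gene symbol, with 5 closing tallies of unassigned reads that entered neither library sizes nor tests (38.4% to 40.9% of all reads). Groups were taken from the genotype label.

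Each fit kept the genes whose CPM passed 1 in any of its libraries. The test was that of edgeR 4.0.16 in R 4.3.3 (TMM, estimateDisp, robust glmQLFit, glmQLFTest), with Benjamini-Hochberg adjustment over all genes tested and calls below 0.05. Sp3-/- against WT used those 7 libraries, and the other comparisons all 11. This count test replaced the limma-voom fit of the study, which was run as an alternative. SE are those implied by the F statistic, and intervals are at 95%. Levels are log2 CPM with a prior count of 2. The scripts were tested on counts simulated for Sp3-/- against WT, with changes planted in genes drawn at random. The fit called 43 of 96 planted 2-fold changes (44.8%) and 79 of 99 planted 4-fold changes (79.8%). DESeq2 1.42.0, limma 3.58.1, other scalings, filters, covariates, a block and the removal of each library were tried. Intervals cover the spread between libraries.

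Subunit genes and lists were chosen with earlier results of these data known. Named genes are those called in any fit described, core and other major subunits, tissue isoforms and partners, the Atp5g genes, the extremes of each complex, and up to 3 genes per list by size of change. Genes with no overlap between groups, and examples such as Ndufs1, Uqcrfs1 and Rplp0, were named after their values were seen. Window counts used GRCm39 with GENCODE vM39, and promoters the RefSeq table of GRCm38.p6. Python 3.11.15 was used. The values of 1 complex I gene enter the counts and medians but are not reported here.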

Additional observations from a re-analysis of the deposited data

Results flagged for a closer look

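In the groups of 4 libraries, WT and Sp3+/-, a library standing apart from the other 3 was looked for in each tested subunit gene, in Sp3 and Sp1 and in the read share of each complex. The gap to its nearest neighbour, divided by the range of the group, passed the 95% Dixon limit for 4 samples in 10 of 166 cases, and chance gives about 1 in 20. WT 697-1 was the lowest of its group for Atp5e (5.98 log2 CPM, others 6.22 to 6.25), Atp5h (4.77, others 5.06 to 5.09), Cox5a (6.16, others 6.62 to 6.68), Cox5b (4.32, others 4.87 to 4.98) and Ndufs1 (6.67, others 6.77 to 6.79). WT 468-4, the only WT library without a title suffix, was the highest for Cox8a (7.28, others 6.45 to 6.57) and Atp5s (3.21, others 2.96 to 2.99). Sp3+/- 468-3, the only library with suffix 2 by title, was the highest for Atp5o (6.72, others 6.47 to 6.51) and the lowest for Atp5g3 (7.05, others 7.29 to 7.33) and Ndufa9 (6.12, others 6.25 to 6.27).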

How the results depend on the processing

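Over the settings tried, other than leaving out a library, 147 values of the counts, medians and levels of the subunit genes kept within their limits and 17 did not. In Sp3-/- against WT the number called lower, 2 in the report, was 5 with DESeq2 (30.6% of all genes called), 6 with all 11 libraries in a single fit (28.1%), 4 with upper quartile scaling (18.9%) and 0 among libraries without a title suffix, beside 18.5% in the report. That scaling moved the median of all genes to -0.07 and that of the 75 to -0.15. Without suffixed libraries the median was -0.22 for all subunit genes, -0.03 for complex II and -0.26 for complex IV. With the first label number as a replicate block 1 gene was called higher, Cox8a. In Sp3-/- against Sp3+/- the number lower, 4 in the report, was 2 with every gene with a count, 1 with the replicate block, 0 among libraries without a suffix and 1 with the suffix as a covariate. It was 3 with the groups compared alone, where Ndufv3 lost its call, 5 with DESeq2, library size alone and limma-voom, and 6 with upper quartile scaling. The number higher was 1, Sdha, with DESeq2, library size alone and limma-voom with or without the consensus correlation. Ndufs7 (0.23) turned to -0.05 among libraries without a suffix and -0.00 with the suffix as a covariate, without a call. The longer GC box lowered the promoter share to 16%. A prior count of 0.5 in place of 2 moved no level by more than the spread between WT libraries. The causes of these shifts were not tested beyond the construction of each setting.

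Leaving out each library in turn gave 0 to 2 called higher and 0 to 2 lower with medians of -0.13 to -0.04 in Sp3-/- against WT (2.01% to 29.9% of all genes called), 0 to 1 higher and 1 to 2 lower with medians of -0.08 to 0.01 in Sp3-/- against Sp3+/-, and 0 to 0 in both directions with medians of -0.10 to -0.01 in Sp3+/- against WT. In Sp3-/- against WT the medians of complexes I to V were -0.13 to -0.02, 0.06 to 0.13, -0.10 to 0.03, -0.12 to -0.02 and -0.22 to -0.13. The 2 higher calls, Cox8a and Ndufs7, came without WT 468-4, at 29.9%.

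The labels do not say what the first label number marks. Deviations from the genotype means correlated at -0.62 to 0.34 between libraries of different genotype with the same number (0.11 to 0.29 in the pairs numbered 685). Not all pairs passed 0.1, so the libraries were treated as unpaired, and WT 468-4 and Sp3+/- 697-4, both without a suffix, correlated at 0.71. In Sp3-/- against WT the replicate block moved genes called from 2599 to 4031. The 9 untested genes were read too rarely to be compared.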
